A study of Mus musculus with 4 samples.

Results

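The genes described here are 10 mouse genes whose secreted products make up much of the fluid of the seminal vesicle, the paired androgen-dependent gland that opens into the urethra beside the prostate. They were taken by name, as Svs1, Svs2, Svs3a, Svs3b, Svs4, Svs5, Svs6, Pate4, Spinkl and Sva, and all 10 were found among the 23242 rows of the expression table. RNA was sequenced from the prostates (ventral and dorsal lobes) of 4 mice of the FVB strain. Mice 26 and 29 were TMPRSS2:ERG homozygotes, scored ERG positive, and mice 27 and 28 were wild type, scored ERG negative. The transgene came from a bacterial artificial chromosome holding the TMPRSS2 locus, into which a cassette of human ERG exons behind a floxed GFP had been placed; Cre protein removed the GFP, and 1 sub-line was bred to homozygosity. Age was not stated, each library came from its own mouse, and no seminal vesicle library was analysed here.

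In rodents, seminal vesicle proteins mix with prostate secretion at ejaculation and are cross-linked by the prostate transglutaminase TGM4 into the copulatory plug. The Svs genes encode abundant secreted proteins of this clot, and human semenogelins are their counterparts. Other products of the gland coat the sperm surface and hold back capacitation, the change that makes sperm able to fertilise.

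Values are FPKM, fragments per kilobase of transcript and per 1e6 fragments sequenced, divided by a scaling factor for each library (scaled FPKM). The factors were 1.01 and 1.04 for mice 26 and 29, and 0.921 and 1.03 for mice 27 and 28. Depth was estimated from the most common low level of FPKM times transcript length, taken to be that of 1 fragment. Genes with 1 annotated transcript of over 600 bases were used. In units of 1e6 fragments the estimates were 45.3 and 52.0 in homozygotes 26 and 29, and 45.3 in each of mice 27 and 28. These are centres of bins 0.2 log2 units wide, so equal values do not mean equal depths. Of 7 prostate markers, the 5 with a value in every library summed to 43176 and 26732 scaled FPKM in homozygotes 26 and 29, against 16931 and 14784 in wild types 27 and 28, with none under 1 in any library. Of these 5, Tmprss2 fell (log2 difference -0.75, limma adjusted p = 0.0209) and none rose. Msmb, a secreted protein gene, took up most of the sum in homozygotes, at 28100 and 14924 scaled FPKM in homozygotes 26 and 29, against 4240 and 4729 in wild types 27 and 28 (limma adjusted p = 0.0626). Sbp, another secretory gene, was at 151 and 4.91 scaled FPKM in homozygotes 26 and 29. In both wild types it holds the code described below, so its change could not be computed. If that code is an upper limit, Sbp was far lower in both homozygotes. The prostate secretory gene Pbsn was measured at 14386 and 11155 scaled FPKM in homozygotes 26 and 29, against 12135 and 9477 in wild types 27 and 28. The prostate lineage factor gene Hoxb13 reached 288 and 249.5 scaled FPKM in homozygotes 26 and 29, against 238 and 237 in wild types 27 and 28. Mouse Erg was at 0.881 and 1.12 scaled FPKM in homozygotes 26 and 29, against 1.06 and 0.926 in wild types 27 and 28; human ERG is not a row that was used, so the genotypes rest on the labels. In bulk tissue, fewer cells of a type and less RNA per cell cannot be told apart.

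A single value made up of the digit 9 alone occurs in 7 genes of the table and was read as a code, since the next highest value is 35611 FPKM. Its meaning is not documented, and it may be an upper limit of the scale, in which case these genes were above every other level where they hold it. Of the 10 genes, 3 carry it. Svs2, the chief clot protein gene and the row that the table pairs with human SEMG1, holds the code in all 4 libraries, so its level could not be compared. Svs4 and Svs5 hold it in mouse 27 only. The other 7 genes have a value in every library.

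The 10 genes fell into clearly different ranges. Svs1, Svs3a, Svs3b, Svs6, Spinkl and Sva were very low in both homozygotes and far higher in both wild types, with mouse 27 well above mouse 28. Svs5 and Pate4 were abundant in every library where they have a value, homozygotes included. Svs4 lay between these, well above Svs6 in homozygotes.

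**Figure D1:**
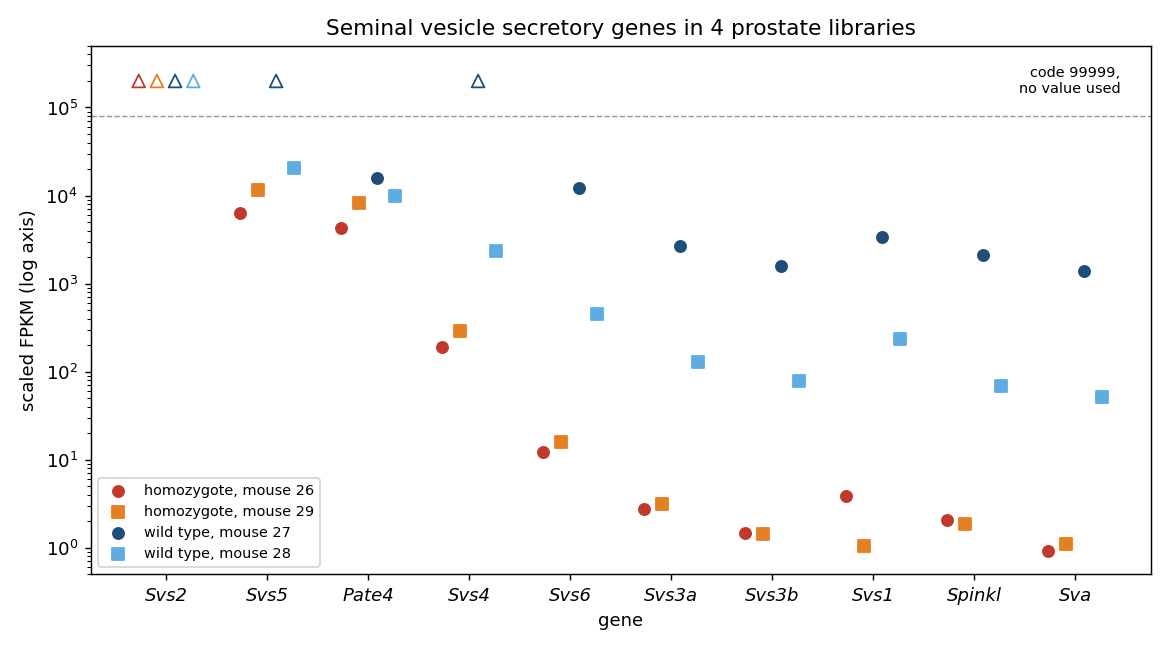
Level of each of the 10 genes (scaled FPKM, log axis) in each library, 1 point per library, with homozygotes in red and orange to the left of the wild types in dark and light blue; open triangles mark the code, which was not used as a value. The 6 genes at the right lie between 0.912 and 15.9 scaled FPKM in homozygotes and between 51.1 and 12079 in wild types, while Svs5 and Pate4 are at 4318 or more in every library with a value.

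Among the clot proteins of the Svs group, Svs6 had the highest level of the genes with 4 values apart from Pate4. Svs6 encodes a small secreted protein of the rapidly evolving seminal vesicle transcript family (Entrez 20945, chromosome 2, 164316751 to 164318450, mm10, plus strand). It was at 12.3 and 15.9 scaled FPKM in homozygotes 26 and 29, against 12079 and 455 in wild types 27 and 28. The groups did not overlap, and the lower wild type was 28.7 times the higher homozygote. It fell, with a difference of -7.29 in log2(scaled FPKM + 1) (SE 1.42, n = 2 per genotype, limma adjusted p = 0.0398).

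Svs3a and Svs3b are similar clot protein genes on opposite strands of chromosome 2 (Entrez 64335, 164289268 to 164291500, and Entrez 329557, 164254363 to 164256643). Svs3a was at 2.78 and 3.16 scaled FPKM in homozygotes 26 and 29, against 2672 and 129 in wild types 27 and 28. Svs3b was at 1.47 and 1.45 scaled FPKM in homozygotes 26 and 29, against 1565 and 78.3 in wild types 27 and 28. Both were lower in every homozygote than in every wild type. Both fell, Svs3a with a log2 difference of -7.22 (SE 1.3, limma adjusted p = 0.0321) and Svs3b with one of -7.16 (SE 1.29, limma adjusted p = 0.0314). Their transcripts were identical at 88.5% of 1257 aligned positions, and 44.6% of the 50-base words of Svs3a also occurred in Svs3b, so the split of reads between them is uncertain. No other of the 45 pairs of these genes shared such a word.

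Svs1 encodes a large clot protein related to copper amine oxidases (Entrez 243377, chromosome 6, 48986861 to 48991724, plus strand). It was at 3.83 and 1.05 scaled FPKM in homozygotes 26 and 29, against 3421 and 236 in wild types 27 and 28. It fell, with a log2 difference of -8.16 (SE 1.21, limma adjusted p = 0.0173). That was the largest among the 7 genes tested, although its difference from the others was not tested. Svs1 also differed most between the homozygotes among the 6 low genes, with mouse 26 at 3.66 times mouse 29.

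Of the genes for sperm-coating proteins, Sva and Spinkl also fell. Sva, the seminal vesicle autoantigen gene, encodes a phospholipid-binding protein that suppresses sperm motility (Entrez 20939, chromosome 6, 42038394 to 42042851, plus strand). It was at 0.912 and 1.11 scaled FPKM in homozygotes 26 and 29, against 1397 and 51.1 in wild types 27 and 28, a log2 difference of -7.07 (SE 1.42, limma adjusted p = 0.0434). Spinkl, a gene for a Kazal-type inhibitor-like protein that binds sperm, lies on chromosome 18 (Entrez 77424, 44166358 to 44175073, minus strand). It was at 2.08 and 1.88 scaled FPKM in homozygotes 26 and 29, against 2138 and 68.5 in wild types 27 and 28, a log2 difference of -7.02 (SE 1.48, limma adjusted p = 0.0491). For both genes the lower wild type was over 30 times the higher homozygote. The lowest of these values, that of Sva in mouse 26, corresponds to about 27.2 fragments at the estimated depth.

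Pate4, also named Svs7, encodes a small Ly6-like protein that binds sperm (Entrez 56872, chromosome 9, 35607093 to 35611885, minus strand). It was at 4318 and 8148 scaled FPKM in homozygotes 26 and 29, against 15870 and 9904 in wild types 27 and 28. The groups did not overlap, yet the lower wild type was only 1.22 times the higher homozygote. Its log2 difference of -1.08 (SE 0.526) did not pass (limma adjusted p = 0.325).

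Svs4 and Svs5 encode further small secreted proteins of the seminal vesicle (Entrez 20941, chromosome 2, 164275956 to 164278307, minus strand; Entrez 20944, chromosome 2, 164332765 to 164334394, plus strand). Svs4 was at 190 and 292 scaled FPKM in homozygotes 26 and 29, against 2337 in mouse 28. Svs5 was at 6311 and 11693 scaled FPKM in homozygotes 26 and 29, against 20315 in mouse 28. Mouse 28 was 8.0 times the higher homozygote for Svs4 and 1.74 times for Svs5. Fitted without mouse 27, whose value is the code, Svs4 had a log2 difference of -3.30 (SE 0.327, limma adjusted p = 0.00924) and Svs5 one of -1.24 (SE 0.725, limma adjusted p = 0.431). That fit takes the lone wild type to vary as the homozygotes do, and it called 3.03% of 11780 genes lower, nearly all of them fitted on 4 libraries. With mouse 27 left out for every gene, 8.75% of 11806 genes were called lower.

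In the limma fit over all 4 libraries, 6 of the 7 genes with a full set of values fell and none rose. The same fit called 7.65% of 11762 genes in either direction and 3.00% lower. The groups did not overlap, with homozygotes lower, for all 7 genes and for 25.8% of genes tested; homozygotes were higher, without overlap, for none of the 7 and for 25.3% of genes tested. The median log2 difference of the 7 was -7.16, beside -0.003 over all genes tested. A log2 difference of -7 or below occurred in 0.0595% of genes tested, namely these 6 and Spink3, a secreted trypsin inhibitor gene. That cut lies just short of the smallest of the 6 falls (-7.02, Spinkl), and Atp6v1c2, at -6.91, just missed it. The share thus depends on where the cut was placed and is only a description. At -4 or below there were 13 genes, with the same 6 among them. All 7 genes averaged over 1 scaled FPKM in the homozygotes alone, so none passed the filter on low values only through the wild types. In the authors' deposited table the same 6 genes have log2 folds between -8.21 and -9.27 with q-values under 0.05, and 7.10% of its 14374 compared rows are lower at that q-value. That table's folds for Svs4 (-7.68) and Svs5 (-2.70), each with a q-value of 1, are what the authors' means give when the code enters as a level, and its fold of 0 for Svs2 rests on the code alone.

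The size of these falls depends on which wild type is compared. Without mouse 27 the 6 genes had log2 differences between -6.25 and -4.56, and without mouse 28 between -10.08 and -9.31. All 6 were called each time, but with 1 wild type left the spread came from the homozygotes alone, so these calls leave out the gap between the wild types. The fit without mouse 27, which also called Svs4, called 8.75% of genes lower, and that without mouse 28 called 5.59% of 11691. Without mouse 26 or without mouse 29 only Svs1, Svs3a and Svs3b were called, in fits that called 1.18% of 11790 and 1.25% of 11741 genes lower. Without a filter on low values and with a robust trend limma called none of the 7, with unadjusted p under 0.05 in 6 and 4 of them. In either direction those fits called 731 of 17902 and 952 of 11762 genes, the latter beside 900 in the main fit.

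In the 6 genes that fell, mouse 27 exceeded mouse 28 by more than in nearly all other genes. Spinkl was 31.2 times as high in mouse 27 as in mouse 28, Sva 27.3 times, Svs6 26.6 times, Svs3a 20.7 times, Svs3b 20.0 times and Svs1 14.5 times. On the log2(scaled FPKM + 1) scale these ratios ran from 3.85 to 4.94, while Pate4 differed by 0.68. The median absolute difference between the wild types over all genes tested was 0.183. Only 12 genes, 0.102% of those tested, had a log2 ratio of mouse 27 over mouse 28 of 3 or more, and 6 of them were Svs1, Svs3a, Svs3b, Svs6, Spinkl and Sva. The others were Ceacam10, Dnase2b, A630095E13Rik, Orm3, Anxa9 and Agxt2l2. Genes higher in mouse 28 were not counted, and large gaps in that direction occurred too, as in the urothelial marker Upk3a (-4.18). The ratio of mouse 28 to the higher homozygote ran from 28.7 for Svs6 to 61.7 for Svs1. In log2(scaled FPKM + 1), the homozygote mean minus mouse 28 was larger in size than the gap between the wild types for Svs1, Svs3a, Svs3b and Svs6, but smaller for Spinkl (-4.55, beside 4.94 between the wild types) and Sva (-4.70, beside 4.74). With 2 libraries per genotype the spread between mice is poorly known.

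**Figure D2:**
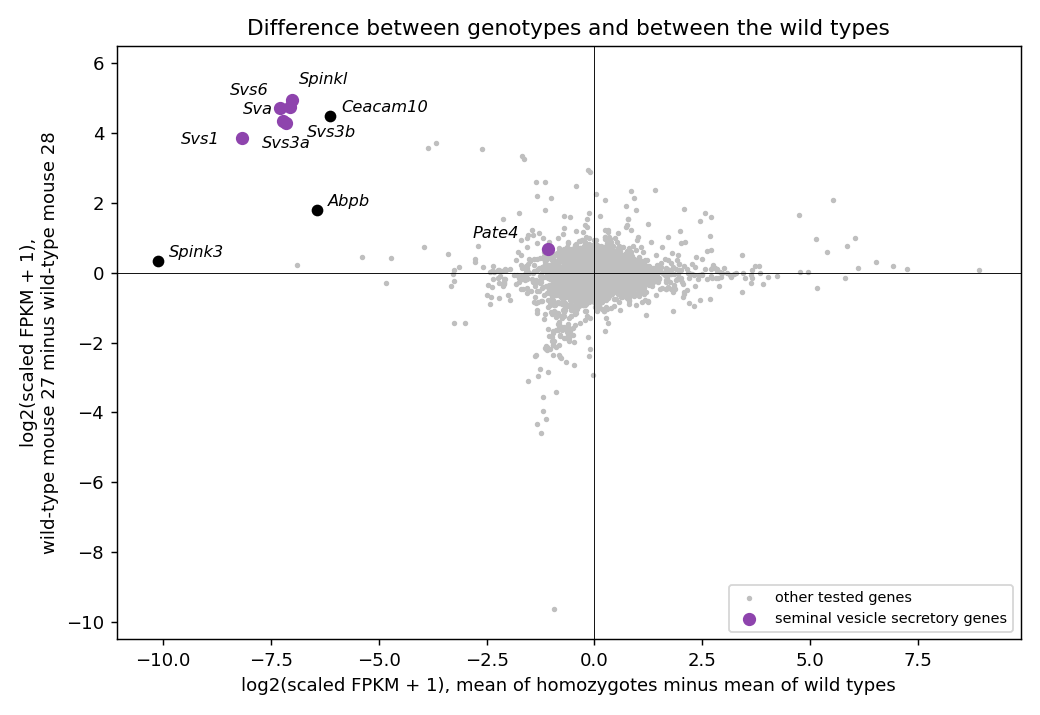
Each tested gene by its log2 difference between genotypes (horizontal axis, homozygote minus wild type) and its log2 difference between the wild types (vertical axis, mouse 27 minus mouse 28), with the 7 tested seminal vesicle genes in purple and Spink3, Ceacam10 and Abpb in black. The 6 that fell sit together at the upper left, below -7 on the horizontal axis and above 3.8 on the vertical axis, while Pate4 lies at the edge of the main cloud.

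The homozygotes were close to each other in 5 of the 6 genes. The log2 difference of mouse 26 minus mouse 29 lay between -0.34 and 0.10 for Svs3a, Svs3b, Svs6, Spinkl and Sva, and was 1.24 for Svs1. For Pate4 it was -0.92, for Svs5 -0.89 and for Svs4 -0.61, with mouse 29 the higher in these. The median absolute difference between the homozygotes over all genes tested was 0.106.

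Within a library Svs3a, Svs3b, Spinkl and Sva stayed in nearly the same proportion to Svs6 while its level changed. Svs6 itself ranged 981-fold over the libraries. Relative to Svs6 in the same library, Svs3a was at 0.226 and 0.199 in homozygotes 26 and 29, against 0.221 and 0.284 in wild types 27 and 28. Spinkl was at 0.169 and 0.118 of Svs6 in homozygotes 26 and 29, against 0.177 and 0.151 in wild types 27 and 28. The ratio to Svs6 thus varied by 1.42-fold over the libraries for Svs3a, 1.5-fold for Spinkl, 1.66-fold for Sva and 1.89-fold for Svs3b. It varied by 7.89-fold for Svs1, which was lowest relative to Svs6 in mouse 29. The ratio of Svs3a to Svs3b was 1.89 and 2.19 in homozygotes 26 and 29, against 1.71 and 1.65 in wild types 27 and 28.

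Relative to Svs6, Pate4, Svs5 and Svs4 were higher in homozygotes than in the wild types with a value, and Svs4 varied less (3.58-fold) than Svs1. Pate4 was at 351 and 514 times Svs6 in homozygotes 26 and 29, against 1.31 and 21.8 times in wild types 27 and 28. Svs5 was at 512 and 737 times Svs6 in homozygotes 26 and 29, against 44.7 times in mouse 28. Svs4 was at 15.5 and 18.4 times Svs6 in homozygotes 26 and 29, against 5.14 times in mouse 28. Summed over the 6 genes that fell, the level was 23.4 and 24.5 scaled FPKM in homozygotes 26 and 29, against 23272 and 1018 in wild types 27 and 28. That sum made up 0.00458% and 0.00540% of all FPKM without the code in homozygotes 26 and 29, against 4.54% and 0.222% in wild types 27 and 28.

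**Figure D3:**
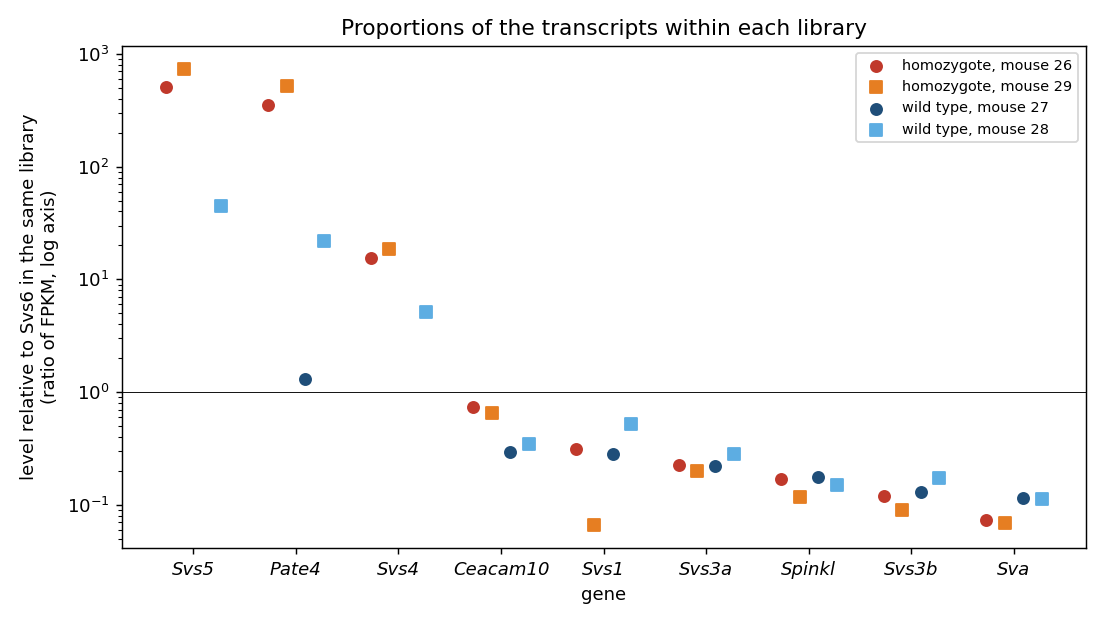
Level of each gene as a ratio to Svs6 in the same library (log axis), 1 point per library, homozygotes left of wild types. Svs3a, Spinkl, Svs3b and Sva stay within 1.89-fold over the libraries, whereas Pate4 runs from 1.31 to 514 times Svs6; Svs4 and Svs5 have no point for mouse 27.

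The contrast between Svs5 and Svs6 is shown with their upstream sequences, because the genes are neighbours with closely matching promoters and unlike levels. Both lie on the plus strand of chromosome 2. The 250 bases before each start, from RefSeq on GRCm38.p6, were identical at 93.3% of 254 aligned positions, while the transcripts were identical at 54.8% of 650 and shared no 50-base word. In mouse 28, Svs5 was at 20315 scaled FPKM and Svs6 at 455. The sequences are given 5′ to 3′ for Svs5 (chr2:164332515-164332764) and Svs6 (chr2:164316501-164316750). Capitals mark 2 motifs, each searched on both strands. TGTTCT, which reads AGAACA on the other strand, is the core bound by the androgen receptor and related steroid receptors. GATAAG is a GATA-type motif that was chosen after the sequences had been read, and on the other strand it reads CTTATC.
Svs5: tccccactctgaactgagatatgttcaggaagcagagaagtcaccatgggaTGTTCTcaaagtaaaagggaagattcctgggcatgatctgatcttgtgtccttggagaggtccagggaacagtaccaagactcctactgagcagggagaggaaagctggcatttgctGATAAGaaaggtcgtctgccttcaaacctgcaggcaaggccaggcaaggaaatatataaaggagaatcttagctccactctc
Svs6: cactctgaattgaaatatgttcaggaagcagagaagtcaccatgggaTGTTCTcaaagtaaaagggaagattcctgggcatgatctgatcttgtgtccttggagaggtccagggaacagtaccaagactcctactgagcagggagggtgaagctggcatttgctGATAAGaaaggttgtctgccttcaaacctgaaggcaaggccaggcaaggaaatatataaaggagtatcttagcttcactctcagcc
In both, TGTTCT lies in the distal part, 199 to 194 bases before the start in Svs5 and 203 to 198 in Svs6, and GATAAG begins 82 bases before it in Svs5 and 86 in Svs6.

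Svs3a and Svs3b are shown beside them as the pair with the most alike promoters. Their 250 bases before the start were identical at 97.6% of 250 aligned positions (Svs3a, chr2:164289017-164289266, plus strand; Svs3b, chr2:164256644-164256893, minus strand).
Svs3a: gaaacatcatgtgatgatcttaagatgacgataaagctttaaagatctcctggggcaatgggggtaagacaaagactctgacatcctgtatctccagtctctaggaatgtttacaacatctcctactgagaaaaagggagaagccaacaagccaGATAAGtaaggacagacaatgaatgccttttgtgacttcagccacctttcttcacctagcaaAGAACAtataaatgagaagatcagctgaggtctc
Svs3b: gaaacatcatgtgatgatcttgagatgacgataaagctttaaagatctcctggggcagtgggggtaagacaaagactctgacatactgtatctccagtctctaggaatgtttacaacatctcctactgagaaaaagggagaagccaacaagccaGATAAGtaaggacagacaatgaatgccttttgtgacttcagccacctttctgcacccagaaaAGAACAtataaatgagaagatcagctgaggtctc
In each, GATAAG begins 96 bases and AGAACA 34 bases before the start. Of the 8 genes with a promoter in the RefSeq table, the androgen receptor core was found in 6 (Svs1, Svs3a, Svs3b, Svs5, Svs6 and Sva) and in 16.2% of 27025 mouse promoters of the same length. GATAAG was found in 5 (Svs3a, Svs3b, Svs4, Svs5 and Svs6) and in 6.60% of those promoters. Because GATAAG was chosen after these sequences had been read, its share here cannot be weighed against that background. The promoters of Svs5, at 6311 and 11693 scaled FPKM in homozygotes, and of Svs6, at 12.3 and 15.9 scaled FPKM there, both hold the same motifs. Near-identical promoters are not independent instances, a match is only a description of the letters, and binding was not measured.

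On chromosome 2 the 6 genes Svs2, Svs3b, Svs4, Svs3a, Svs6 and Svs5 form a block of 98.5 kb in that order, with no other row of the table inside it. Within 250 kb of the 10 genes lay 62 other rows, of which 28 were tested. Near Sva, Tmem139 fell, with 3.55 and 3.18 scaled FPKM in homozygotes 26 and 29, against 11.4 and 9.55 in wild types 27 and 28 (log2 difference -1.39, SE 0.129, limma adjusted p = 0.00375). Near Svs1, Tmem176a rose by 1.26 (limma adjusted p = 0.0135) and Tmem176b by 0.89 (limma adjusted p = 0.0356). The call of Tmem176a was lost without mouse 26 (limma adjusted p = 0.0919), and that of Tmem176b without mouse 26 (0.343), without mouse 29 (0.122) and without a filter (0.0771). Pigt and Wfdc2, on chromosome 2, rose as well. Lower calls were thus 1 of 28 (3.00% over all genes) and higher calls 4 of 28 (4.65% over all genes). With an unadjusted p under 0.05, 7 were lower and 5 higher, and the authors' deposited table calls 5 lower and 5 higher. Over the 11762 genes tested, 1180 were lower and 1295 higher at that unadjusted p, and the authors' table calls 737 lower and 870 higher. None of the 10 tested neighbours on chromosome 2 fell by limma, 2 had lower values with an unadjusted p under 0.05, and the authors' deposited table calls 1 of them lower. The nearest tested neighbours of the block were Wfdc15b, a WAP-domain inhibitor gene 14.3 kb from Svs2, and Slpi, a secreted leukocyte protease inhibitor gene 19.7 kb from Svs5.

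Wfdc15b was at 32.2 and 57.3 scaled FPKM in homozygotes 26 and 29, against 149 and 81.6 in wild types 27 and 28 (log2 difference -1.34, SE 0.368, limma adjusted p = 0.103). Slpi was at 3.37 and 6.09 scaled FPKM in homozygotes 26 and 29, against 7.22 and 8.60 in wild types 27 and 28 (log2 difference -0.67, SE 0.241, limma adjusted p = 0.188). Both were closer to 0 than those of Svs3a, Svs3b and Svs6. Svs4 and Svs5 have no value in mouse 27, so they can be set beside the others only against mouse 28. The homozygote mean minus mouse 28 was -0.91 for Wfdc15b and -0.79 for Slpi, beside -1.24 for Svs5 and -3.30 for Svs4. It was -5.04 for Svs3a, -5.01 for Svs3b and -4.93 for Svs6. The differences between these values were not tested. On the far side, Wfdc2, a gene for another secreted WAP-domain protein, rose by 2.31 (SE 0.303, limma adjusted p = 0.0115). Pigt, a subunit gene of the enzyme that attaches GPI anchors, rose by 0.74 (SE 0.148, limma adjusted p = 0.0439), a call lost without mouse 26 (adjusted p = 0.277), without mouse 29 (0.189), unscaled (0.0715), with quantile normalization (0.0898) and without a filter (0.0812). Beside Spinkl, the Kazal inhibitor gene Spink11, named here after its values were seen, was at 1.55 and 3.24 scaled FPKM in homozygotes 26 and 29, against 23.2 and 7.38 in wild types 27 and 28 (limma adjusted p = 0.0764).

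**Figure D4:**
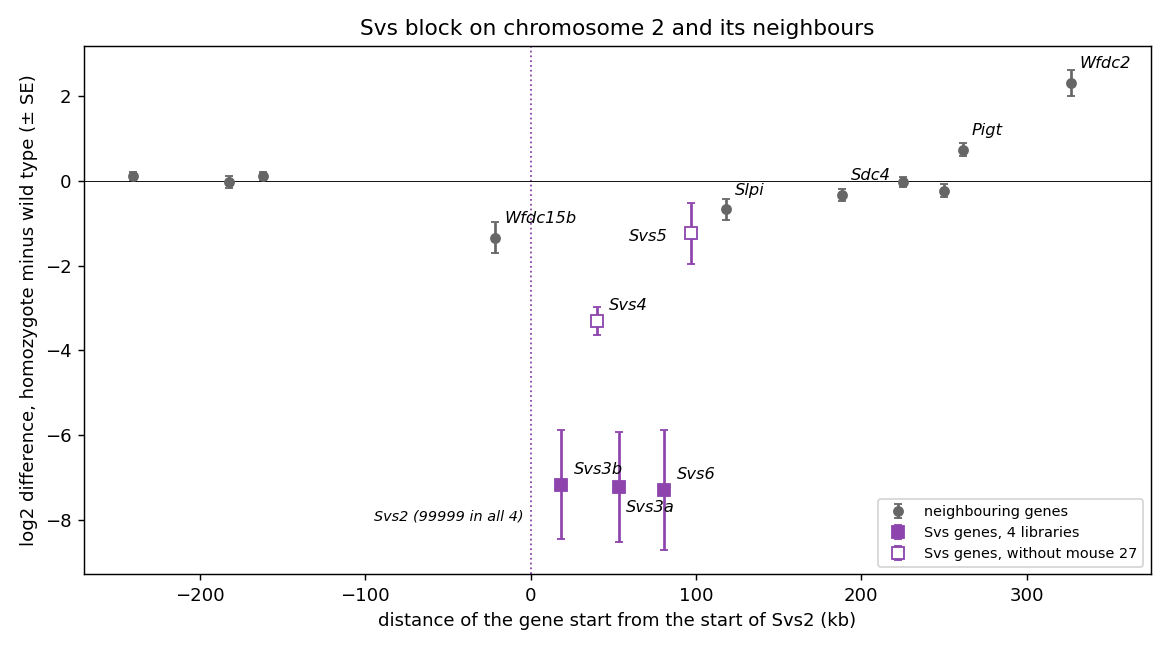
Log2 difference between genotypes (homozygote minus wild type, bars are SE) of tested genes around the Svs block, by distance of the gene start from that of Svs2 in kb; filled squares are Svs genes fitted on 4 libraries, and open squares are Svs genes fitted without mouse 27. Svs3b, Svs3a and Svs6 lie between -7.29 and -7.16, Svs4 at -3.30 and Svs5 at -1.24, and the adjoining Wfdc15b and Slpi at -1.34 and -0.67. Because the open squares leave out mouse 27, their heights cannot be compared directly with those of the other points.

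Most paralogues of the 10 genes were too low to test. Of 12 listed, 4 passed the filter on low values and none changed by limma. At an unadjusted p under 0.05, 2 were lower and 1 higher, beside 1180 and 1295 of the 11762 genes tested. The authors' deposited table calls 2 lower and 1 higher, beside 737 and 870 of those genes. Sval2, a Sva-like gene, was listed at 0 in both homozygotes, against 4.42 and 0.170 scaled FPKM in wild types 27 and 28 (log2 difference -1.33, limma adjusted p = 0.341). Sval1 ran the other way, at 3.68 and 1.66 scaled FPKM in homozygotes 26 and 29, against 0.907 and 0.919 in wild types 27 and 28 (log2 difference 0.88, limma adjusted p = 0.133). The table's D730048I06Rik, which RefSeq names Pate6, was at 1.18 and 2.77 scaled FPKM in homozygotes 26 and 29, against 11.1 and 5.0 in wild types 27 and 28 (log2 difference -1.57, limma adjusted p = 0.0836).

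Of 9 other genes of seminal vesicle secretion and the copulatory plug, 6 were tested and 1 fell, Spink3, where 3.00% of all genes tested were called lower. Lower values with an unadjusted p under 0.05 were found for 5 of the 6, and for 1180 of the 11762 genes tested. Groups did not overlap, with homozygotes lower, for 5 (25.8% over all genes tested). The authors' deposited table calls 2 of the 6 lower, and 737 of the 11762. Spink3 was at 97.1 and 8.70 scaled FPKM in homozygotes 26 and 29, against 38646 and 30639 in wild types 27 and 28. Its wild types were thus close to each other where those of the 6 Svs-type genes were far apart. Its call was lost with a robust trend (limma adjusted p = 0.0668). Ceacam10, whose secreted product binds sperm, was at 9.17 and 10.4 scaled FPKM in homozygotes 26 and 29, against 3568 and 157 in wild types 27 and 28. Its log2 difference of -6.12 (SE 1.35) narrowly missed the threshold (limma adjusted p = 0.0559). Tgm4, the plug transglutaminase gene, was at 5695 scaled FPKM in mouse 26, against 6099 and 3900 in wild types 27 and 28, and holds the code in mouse 29. Serpine2, an extracellular protease inhibitor gene, was at 114 and 218 scaled FPKM in homozygotes 26 and 29, against 265 and 280 in wild types 27 and 28 (limma adjusted p = 0.224).

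The genes whose pattern over the 4 libraries was nearest to the median of the 7 were found by root mean square distance between centred log2 values. Ceacam10 was nearest at 0.519. The 6 that fell lay at 0.0707 (Sva) to 0.732 (Svs1) and Pate4 at 3.36. These 7 set the median themselves, so their own distances are not an independent range for Ceacam10. Next came Abpb at 1.06 and Atp6v1c2 at 1.56, followed by A630095E13Rik, Crabp1, Dnase2b, Wfdc3, Itln1, Ibsp and Orm3 at up to 2.31. A630095E13Rik was at 34.8 and 24.0 scaled FPKM in homozygotes 26 and 29, against 1512 and 126 in wild types 27 and 28 (limma adjusted p = 0.108), and so shared the gap between the wild types. Abpb, Atp6v1c2, Crabp1, Wfdc3, Itln1 and Ibsp were high in both wild types at a log2 ratio of at most 1.81 between them.

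Markers of adjoining tissues were read beside these genes. Of 8 epididymis and vas deferens markers, 2 were tested (Akr1b7 and Crisp1), and the summed level was 1979 and 1880 scaled FPKM in homozygotes 26 and 29, against 2960 and 2023 in wild types 27 and 28. The defining epididymal genes Lcn5, Lcn8, Cst8 and Rnase10 were all under 0.1 scaled FPKM in every library, as was Spag11b. Adam7 was low but ran the same way as the 6 genes, at 0.0197 and 0.155 scaled FPKM in homozygotes 26 and 29, against 1.84 and 1.01 in wild types 27 and 28, and it was not tested. Akr1b7 and Crisp1 made up nearly all of the sum. Of 6 urothelial markers none passed by limma, and none had an unadjusted p under 0.05. The authors' deposited table calls 5 of the 6 lower, beside 737 of the 11762 genes tested here. The sum of the 6 markers was 430 and 402 scaled FPKM in homozygotes 26 and 29, against 313 and 632 in wild types 27 and 28. Upk3a was at 1.31 and 12.7 scaled FPKM in homozygotes 26 and 29, against 1.91 and 51.7 in wild types 27 and 28, so mouse 28, the wild type lower in seminal vesicle transcripts, was the higher in this marker. The part of adjoining tissue in the levels of the 6 genes that fell was not tested. Transcripts made in the lobes and transcripts from seminal vesicle cells cannot be told apart in these libraries.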

How the data were processed

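Processed values from RNA of ventral and dorsal prostate lobes were used, 2 TMPRSS2:ERG homozygotes and 2 wild types. The authors deposited 1 table of FPKM per gene and library; its unit was read from the values, and TopHat 1.3, Cufflinks 1.3 and mm10 are named in the submitters' processing notes, with roles, strand use and settings not given in the sources used here. Log2 folds, p-values and q-values of the authors' deposited comparison stand in the same table. Table starts were raised by 1, after which 9 of the 10 genes share the RefSeq start.

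The code was taken as missing. FPKM were divided by median-of-ratios factors, and the 11762 genes with a mean of at least 1 and no missing value were fitted as log2(scaled FPKM + 1) with limma 3.58.1 in R 4.3.3 (two-sided, moderated with a mean trend, Benjamini-Hochberg threshold 0.05); the adjusted p is over all of them, and fold changes understate low genes. The script was tested on simulated data. Transcripts (GENCODE M21) and promoters were aligned with Biopython 1.88; transcripts took the place of proteins, which were not used here. Genes were named by rule: the 10 genes, the 10 nearest patterns, called or selected genes of 2 lists, and called or nearest neighbours within 250 kb. Members and lists were chosen with earlier results of these data known. Alternatives were other scalings, filters, pseudocount and trends, the code kept, genes with missing values kept, and each library left out.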

Additional observations from a re-analysis of the deposited data

How the results depend on the processing

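No paired analysis was possible because no mouse or replicate number is shared between the genotypes. Leaving out 1 library gave 355 to 2028 called genes, against 900 with all 4, and 3 to 7 of the seminal vesicle genes called lower, against 6. The authors' deposited q-value calls 2034 genes. The count of seminal vesicle genes called lower was 3 with unscaled FPKM (Svs1, Svs3a and Svs3b), 0 without a filter on low values and 0 with a robust trend. Those fits called 685 of 11767, 731 of 17902 and 952 of 11762 genes in either direction. The count of seminal vesicle genes was 4 to 7 under the other settings that kept all 4 libraries, and the cause of these losses was not tested. No fold of the 7 tested genes changed sign. The median log2 ratio of mouse 27 over mouse 28 over the 7 was 4.36, and 4.01 to 4.37 unscaled, with quantile normalization and with a pseudocount of 0.1. Ltf, a gene of the plug list that did not pass (0.16), reversed to -0.091 without mouse 29 and to -0.037 without mouse 27, in a range of -0.091 to 0.41 over the libraries left out. Ceacam10 passed at a minimum mean of 5 (limma adjusted p = 0.0453). Alternatives for genes other than the 10 were chosen after seeing the data. FPKM carry no counts, so no counting interval was given.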
